A study of Xenopus tropicalis with 44 samples.

Results

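Cytosolic ribosomal protein genes were followed in early embryos of the frog Xenopus tropicalis by sequencing the mRNA of whole embryos. The genes were taken by symbol: names that begin with rpl or rps and a number, rplp0, rplp1, rplp2 and rpsa, without the ribosomal protein S6 kinases. This gave 81 of the 28778 genes in the count table, and 80 of them were among the 16064 genes with enough counts to be tested. Of the 81, 42 encode proteins of the large subunit, 3 the stalk proteins (rplp0, rplp1 and rplp2) and 30 proteins of the small subunit. These 75 are called core genes below. They include rps28p9, whose symbol marks a copy of rps28 but which RefSeq lists as protein-coding. The set holds no gene under the symbol rps28 itself. The symbols also brought in 4 paralogs or extra copies (rpl3l, rpl22l1, rps27l and rpl34p, which RefSeq lists as a pseudogene) and 2 proteins that are not ribosome subunits: rpl7l1, a ribosome assembly factor, and rps19bp1, a partner of the small subunit protein rps19. The untested gene was rpl3l, the paralog of rpl3 known from mammalian muscle, which held 0 to 2 counts per library.

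Each ribosome takes a single copy of most of its proteins and several copies of the stalk proteins rplp1 and rplp2, and in vertebrates their mRNAs share a 5' terminal oligopyrimidine (5'TOP) sequence through which growth signals control their translation together. In the frog Xenopus laevis, the egg is stocked with ribosomes made in the oocyte, ribosomal protein mRNAs lose poly(A) tail at oocyte maturation, and the embryo starts to make new ribosomes only after the early cleavages. The early embryo divides on maternal mRNA, and transcription from its own genome begins during cleavage and reaches its full extent in the blastula.

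The series compared untreated wild-type (WT) embryos at stages 3 to 10 and 13 with embryos injected with antisense morpholinos against E2F1, a transcription factor of the cell cycle, or OTX1, a homeodomain factor of head development. By the sample titles, stages 3, 4 and 5 are embryos of 4, 8 and 16 cells. The E2F1 MO groups ran from stage 3 to stage 8. The E2F1 rescue groups, given that morpholino and E2F1 mRNA, ran from stage 6 to stage 8. The OTX1 MO groups and the groups injected with the 2 morpholinos together (double MO) were of stages 7 and 8. There were 22 groups of 2 libraries, 44 in all, with 9266513 to 37174326 counts and a median of 20541736. The labels name no control morpholino and do not say whether replicates came from separate clutches, so an adjusted p-value speaks only of the spread among these libraries, which could be technical in part or whole. A morpholino acts on translation or splicing, so the level of its target's RNA does not measure knockdown. In E2F1 MO embryos e2f1 stood at 408 to 626 CPM (counts scaled to a common library total), against 471 to 651 CPM in WT of stages 3 to 8, and in rescue embryos at 23890 to 32500 CPM. The libraries were made with an mRNA kit, so a change in the amount of an mRNA and a change in its poly(A) tail cannot be told apart, and in whole embryos neither can fewer cells of a type and less RNA per cell. In OTX1 MO and double MO embryos otx1 stood at 168 to 202 CPM, against 103 and 108 CPM in WT of stages 7 and 8, and at 145 and 171 CPM in E2F1 MO and 135 and 146 CPM in rescue of those stages, which had no OTX1 morpholino. The 10 maternal marker genes summed to 3030 to 8068 CPM in group means. Of the 12 gastrula and neurula genes listed, 9 were in the table, and 7 of them rose in WT from stage 7 to stage 8. All 9 were higher in E2F1 MO than in WT at stage 7. Among these sox2, a neural transcription factor chosen here after its values were seen, stood at 0.292 CPM in WT stage 7, 8.22 in WT stage 8, 8.73 in E2F1 MO of stage 7, 0.258 in rescue of stage 7, 0.423 in OTX1 MO of stage 7 and 0.158 in double MO of stage 7. The E2F1 MO libraries labelled stage 7 thus stood at the WT stage 8 level of this gene. Of the 8 adult blood genes in the table the haemoglobin gene hba1 did not pass 1.13 CPM, but ptprc, which encodes a leukocyte surface phosphatase, stood at 0.379 to 1.22 CPM in WT of stages 3 to 7, E2F1 MO of stages 3 to 6 and all rescue groups, and at 87.6, 90.5 and 97.1 CPM in WT of stages 8, 9 and 10. It stood at 31.3 and 32.3 CPM in E2F1 MO of stages 7 and 8 and at 21.3 to 22.6 CPM in the OTX1 MO and double MO groups. The 8 adult blood genes together summed to 98.9 CPM at WT stage 10 and 30.4 CPM at WT stage 13.

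From stage 3 to stage 6 the ribosomal protein genes took a small and nearly level share of the mRNA. From the 4-cell embryo to stage 13 that share grew 7.57-fold. In WT they held 0.210% ± 0.0046 of all counts at stage 3 (SD, n = 2, as for the other shares). The share was 0.203% ± 0.00045 at stage 4, 0.206% ± 0.0041 at stage 5, 0.217% ± 0.0029 at stage 6, 0.262% ± 0.0032 at stage 7, 0.175% ± 0.0057 at stage 8 and 0.216% ± 0.0084 at stage 9. From there it grew to 0.638% ± 0.081 at stage 10 and 1.59% ± 0.080 at stage 13. Up to stage 9 the highest and lowest WT shares belonged to neighbouring stages, 7 and 8. The deposited column names of WT stages 7 and 8 begin with s7 and s8, as do those of OTX1 MO and double MO. The names of WT stages 6, 9, 10 and 13 begin with st. Those of E2F1 MO and rescue at stages 6 to 8 also hold st. Whether the groups were handled differently is not stated, and was not tested. The injected groups held 0.180 to 0.249%, inside the range of WT stages 7 and 8. CPM values here are scaled to library sizes adjusted by the TMM method, which corrects for shifts in the make-up of the libraries. Their course can therefore differ from that of the shares, which are of unadjusted counts. The median tested gene of the set stood at 23.0, 18.2, 16.2, 15.5, 16.9, 11.9, 13.98, 62.5 and 198 CPM at WT stages 3, 4, 5, 6, 7, 8, 9, 10 and 13.

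**Figure D1:**
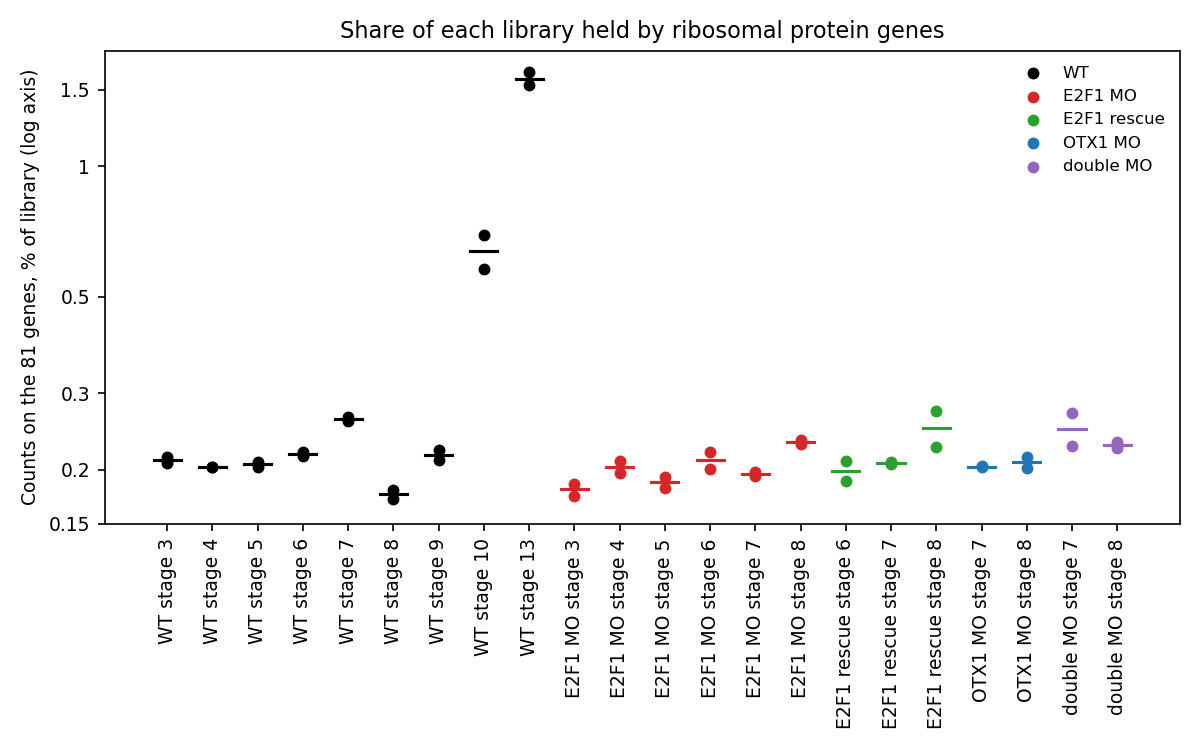
Share of each library's counts on the 81 ribosomal protein genes, in percent on a log axis, for the 22 groups. Each point is a library, coloured by treatment, and short bars are group means. The libraries of WT stages 10 and 13 stand far above all others, with means of 0.638 and 1.59%.

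In TMM-scaled CPM the median of the set declined up to WT stage 6. Most core genes were lowest at stage 8, and a steep rise followed from stage 10. The highest level of all 75 fell at stage 13. The lowest fell at stage 8 for 49, at stage 6 for 8, at stages 4 and 9 for 7 each, at stage 5 for 3 and at stage 3 for rplp0 alone. From stage 3 to its own lowest stage the median core gene lost 1.88-fold in mean CPM, and 31 of the 75 lost at least 2-fold. The size of these losses depends on the scaling, and each gene is read at its own minimum. The direction of the early steps depends on it too. With total counts alone the median log2 change of the set was -0.12 from stage 3 to 4, 0.09 from stage 4 to 5 and 0.07 from stage 5 to 6. The TMM factors were 0.787 and 0.771 in the stage 3 libraries and 1.126 and 1.124 in those of stage 8. The unadjusted share of the set was 0.210% at stage 3 and 0.175% at stage 8. The deepest losses were those of rps24, 3.47-fold, and rps26, 3.39-fold, both proteins of the small subunit. From stage 3 to stage 13 the mean CPM of the median core gene grew 9.54-fold. The 13 genes that grew at least 20-fold were rpl32, rps2, rpl26, rpl29, rpl37, rps3a, rpl23a, rpl34, rpl7, rpl17, rpl36a, rps4x and rpl39, led by rpl32 with 48.4-fold and rps2 with 46.0-fold. A further 23 grew 10.0- to 19.4-fold and 28 grew 5.08- to 9.85-fold. The 11 below 5-fold included rpl13, rpl15, rps10, rps15a, rps14, rplp1, rpl8, rplp2, rpl6 and rps18.

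**Figure D2:**
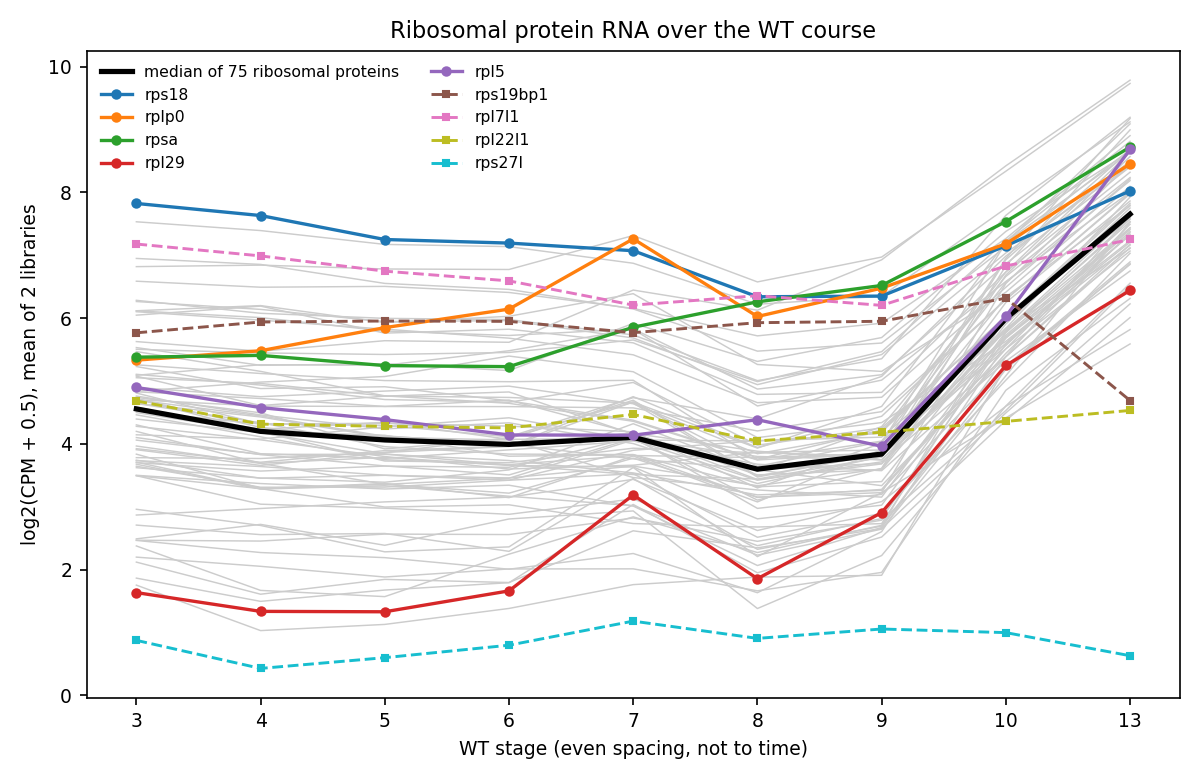
Level of ribosomal protein RNAs over the WT stages, as log2 of CPM plus 0.5 (mean of 2 libraries), with stages evenly spaced. Grey lines are the 75 core genes, the black line is their median, coloured solid lines are single core genes and dashed lines are the paralogs and non-subunit genes. Most lines dip at stage 8 and climb from stage 10, while rps19bp1 drops at stage 13.

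Between neighbouring cleavage stages up to stage 6 few of the 80 tested genes were called. Calls are at an adjusted p under 0.05 from edgeR's quasi-likelihood test, with Benjamini-Hochberg adjustment over the 16064 genes. From stage 3 to stage 4, 9 fell and 0 rose by edgeR, against 4.87% of all genes that fell and 633 of the 16064 that rose. For the set DESeq2 called 17 lower and 0 higher. An unadjusted p under 0.05 was reached by 28 in either direction, and the median log2 change of the set was -0.22 against 0 over all genes. The fall of rpl10a, a large subunit protein, ran from 23.4 and 28.2 CPM at stage 3 to 18.4 and 17.4 CPM at stage 4 (log2 change -0.53 ± 0.13, edgeR adjusted p = 0.00641, with log2 changes given ± SE here and below). The groups did not overlap, but the adjusted p was 0.185 without the second stage 3 library and 0.0877 without the second stage 4 library. Leaving out any of the 4 libraries left 1 to 3 of the 9 calls in number (3 and 1 without the first and second stage 3 library, 2 and 1 without the first and second stage 4 library). Scaled by total counts alone, 4 fell and 1 rose. From stage 4 to stage 5, 12 fell and 1 rose (14.2 and 13.1% of all genes), and with total counts alone 3 fell and 6 rose. The 12 included rps10, from 72.6 to 53.8 CPM in the means (log2 change -0.43 ± 0.09, edgeR adjusted p = 0.000124), and the rise was that of rplp0, from 44.6 and 43.9 to 59.1 and 55.2 CPM (0.37 ± 0.11, edgeR adjusted p = 0.0104). The calls at this step numbered 4 without the first stage 4 library and 5 without the second stage 5 library. The rise of rplp0 missed the threshold without the first or second stage 4 library or the first stage 5 library (edgeR adjusted p = 0.0534, 0.0689 and 0.0898). From stage 5 to stage 6 only rpl14 was called (0.33 ± 0.10, edgeR adjusted p = 0.0318), beside 5.99% of all genes higher and 833 of the 16064 lower. Its call was lost without any of the 4 libraries, with adjusted p of 0.0898 to 0.188.

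At the step from stage 6 to stage 7 genes of the set moved in both directions, as did genes outside it. Of the 80 genes 26 rose and 16 fell (24.1 and 22.8% of all genes), with a median log2 change of 0.14. Most of the rises were in the large subunit: 19 of its 45 genes with the stalk rose and 7 fell, against 7 and 8 of the 30 in the small subunit. The largest rises were in genes with very low levels before. The large subunit protein gene rpl29 stood at 3.301 and 2.027 CPM in the stage 6 libraries and 9.31 and 7.92 CPM at stage 7 (log2 change 1.70 ± 0.23, edgeR adjusted p = 3.56e-08). The gene rpl39, for a small protein of the exit tunnel, moved from 3.301 and 2.626 to 7.90 and 7.51 CPM (1.38 ± 0.18, edgeR adjusted p = 2.59e-08). The gene rpl32 moved from 3.89 and 5.39 to 12.1 and 11.6 CPM (1.34 ± 0.15, edgeR adjusted p = 1.37e-09). In each of these 3 genes both stage 7 libraries lay above both stage 6 libraries. The abundant stalk protein gene rplp0 moved from 71.3 and 69.1 to 154 and 152 CPM (1.12 ± 0.10, edgeR adjusted p = 3.36e-11). The falls included rps24, from 27.7 and 28.0 to 18.2 and 16.4 CPM (-0.69 ± 0.11, edgeR adjusted p = 1.35e-06), rpl30 (-0.62 ± 0.14) and rpl27 (-0.54 ± 0.11). Scaled by total counts alone, 37 rose and 5 fell.

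At stage 8 the set fell together. Of the 80 genes 58 fell and 1 rose (23.1 and 21.1% of all genes), and the median log2 change was -0.67 against 0 over all genes. The falls took in 34 of the 45 large subunit and stalk genes and 23 of the 30 small subunit genes. The largest was that of rpl35a, from 7.58 and 6.70 to 1.97 and 2.24 CPM (-1.76 ± 0.20, edgeR adjusted p = 8.78e-10). It was followed by rpl32, at 4.30 and 3.93 CPM at stage 8 (-1.52 ± 0.16, edgeR adjusted p = 2.8e-10), and rpl29, at 3.94 and 2.30 CPM (-1.45 ± 0.23, edgeR adjusted p = 1.09e-06). The gene rplp0 returned to 64.5 and 64.9 CPM (-1.24 ± 0.10, edgeR adjusted p = 3.87e-12). The single rise was that of rpsa, which encodes the small subunit protein also known as the laminin receptor precursor, from 57.7 and 57.1 to 78.2 and 74.1 CPM (0.41 ± 0.10, edgeR adjusted p = 0.000632). The groups of these 5 genes did not overlap. The WT libraries of stages 7 and 8 also differed in depth (31065046 and 31220148 against 17136933 and 14702381 counts) and in ptprc (0.379 against 87.6 CPM), and 7 of the 9 gastrula and neurula genes rose at the same step. The part of these in the result was not tested. From stage 8 to stage 9, 28 rose and 1 fell (13.1 and 11.4% of all genes), with a median log2 change of 0.29. Genes outside the set that are as short as its shorter members had a median of 0.41 at this step, above that of the set. Of these short genes 14.9% were called higher, against 28 of the 80 genes of the set. The rises included rpl29, to 7.87 and 6.13 CPM (1.14 ± 0.24, edgeR adjusted p = 0.000326), rpl32, to 8.57 and 9.11 CPM (1.10 ± 0.18, edgeR adjusted p = 5.21e-06), and rps4x, the small subunit protein whose mammalian gene lies on the X chromosome (0.73 ± 0.13, edgeR adjusted p = 1.72e-05). The fall was that of rpl5 (-0.43 ± 0.12, edgeR adjusted p = 0.00408), lost without the first stage 8 library (adjusted p = 0.0868). The calls numbered 17 without the second stage 8 library and 18 without the first stage 9 library.

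From stage 9 on nearly all of the genes rose. Of the 80, 78 were higher at stage 10 than at stage 9 (32.7% of all genes). None was lower by edgeR or by DESeq2, where edgeR called 4908 of the 16064 genes lower. The 78 were also all the genes with an unadjusted p under 0.05. The median log2 change was 1.97 against 0.04 over all genes. From stage 10 to stage 13, 77 rose and 1 fell (40.6 and 36.3% of all genes), with a median of 1.64 against 0.08. All 75 core genes rose at both steps. At stage 10 the largest rises were those of rpl26, from 3.68 and 2.83 to 40.2 and 33.4 CPM (log2 change 3.52 ± 0.20, edgeR adjusted p = 1.5e-19), rpl37 (3.46 ± 0.16) and rpl32 (3.40 ± 0.14). At stage 13 the largest were those of rpl5, from 68.5 and 61.1 to 407 and 415 CPM (2.66 ± 0.10, edgeR adjusted p = 7.65e-27), rps9 (2.45 ± 0.12) and rps24 (2.23 ± 0.11). The gene rpl5 encodes a protein that binds 5S rRNA. Its rise over the later step was larger than over the earlier one (2.10 ± 0.11), a difference that was not tested. From stage 3 to stage 13, 76 rose and 1 fell (49.1 and 37.4% of all genes), with a median log2 change of 3.24 against 0.49. The medians were 3.24 for the large subunit with the stalk and 3.29 for the small, a difference that was not tested. The other way to scale, by size factors of relative log expression, moved the median of all genes by 0.25 in this comparison and by 0.20 between stages 10 and 13, and total counts alone moved it by -0.24 between stages 9 and 10 and by -0.28 between stages 10 and 13. The counts of genes called in these comparisons moved by less than 1.5-fold under both. Tested genes outside the set that are no longer than its median length of 611.5 bases numbered 603. Their median log2 change was 1.13 from stage 9 to 10, -0.14 from stage 10 to 13 and 2.49 from stage 3 to 13.

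Because each ribosome takes 1 copy of nearly every protein, the spread of the RNA levels around each other was also measured, on a scale that divides by gene length (TPM, length-scaled counts brought to a common total). At WT stage 3 the 75 core genes had an SD of 1.26 on the log2 TPM scale, with 1.29 and 1.24 in the single libraries. The SD was 1.34, 1.296, 1.285, 1.17, 1.17 and 1.09 at stages 4, 5, 6, 7, 8 and 9, then 0.73 at stage 10 and 0.68 at stage 13, with 0.68 in each stage 13 library. In TPM, the gene at the 90th percentile stood 8.02-fold above the gene at the 10th at stage 3 and 3.41-fold above it at stage 13. The order of the genes also changed. Spearman's rho across the 75 genes between a stage and stage 13 in TPM was 0.509 at stage 3, 0.561 at stage 8 and 0.919 at stage 10. These are descriptions across genes, which are not independent replicates and share their libraries. In the injected groups, which end at stage 8, the SD was 1.21 to 1.34.

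**Figure D3:**
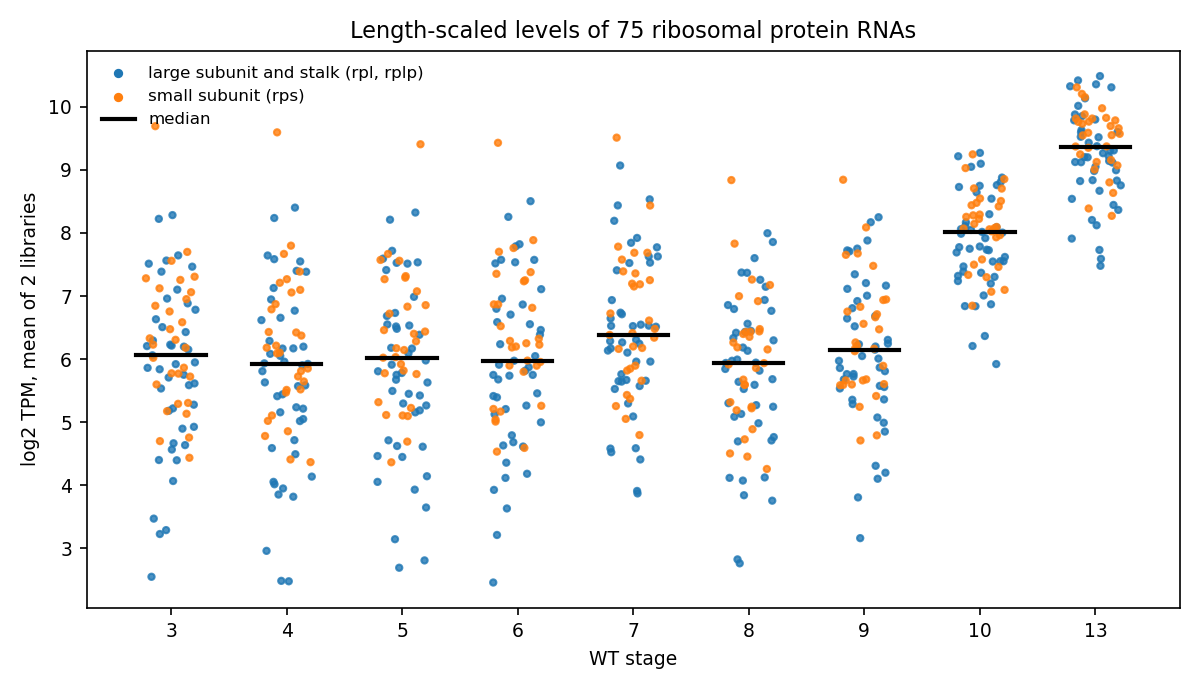
Length-scaled level (log2 TPM, mean of 2 libraries) of each of the 75 core genes at the WT stages. Points are genes, coloured by subunit, and black bars are medians. The points spread widely up to stage 9 (SD 1.09 to 1.34) and draw together at stages 10 and 13 (0.73 and 0.68), where the whole cloud also lies higher.

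At stage 3 the small subunit gene rps18 stood far above the rest, at 827 TPM against a median core gene of 66.7 TPM. It stood at 457 TPM at stage 8 and 899 TPM at stage 13, where the highest were rpl23a (1434 TPM), rpl32 (1367 TPM) and rpl7a (1310 TPM). Over the 9 WT groups the highest mean levels were those of rps18 (680 TPM), rplp1 (433 TPM), rpl4 (396 TPM), rpl6 (358.5 TPM) and rpl7a (337 TPM). The lowest were those of rpl3l (0.0206 TPM), rpl34p (0.722 TPM), rps27l (5.54 TPM), rpl37 (34.05 TPM) and rpl35a (39.25 TPM). The length listed for rpl37 was 2067 bases, the longest in the tested set, and TPM divides by it. In CPM rpl37 reached 207 and 180 at stage 13. The gene rps18 was also the core gene whose course in CPM was least like the others. Its libraries fell from 218 and 235 CPM at stage 3 to 82.4 and 78.7 CPM at stage 8 and came back to 254 and 266 CPM at stage 13, so that its log2 change from stage 3 to 13 was 0.20 ± 0.07 (edgeR adjusted p = 0.0133).

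A comparison of stage 9 with stage 3 gives the net course before the steep rise: 48 of the 80 genes were lower and 11 were higher (31.5 and 39.7% of all genes), with a median log2 change of -0.63 against 0.22 over all genes. The lower genes included rps24 (-1.79 ± 0.13, edgeR adjusted p = 1.46e-16), rps26 (-1.65 ± 0.13, edgeR adjusted p = 1.45e-15), rpl30 (-1.54 ± 0.15, edgeR adjusted p = 2.57e-12) and rps18 (-1.48 ± 0.08). The higher genes included rpl29 (1.404 ± 0.26, edgeR adjusted p = 4.74e-06), rpl3 of the peptidyl transferase region, from 50.04 and 47.9 to 130 and 112 CPM (1.31 ± 0.09, edgeR adjusted p = 3.79e-17), rplp0 (1.15 ± 0.11) and rpsa (1.15 ± 0.10). This direction depends on the scaling. With total counts alone, which moves the median of all genes by 0.56, 29 of the genes were higher and 27 lower. The 603 short genes outside the set had a median of 1.26 in this comparison.

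The course of each gene over all 22 groups was set against the median course of the set, as Pearson's correlation of log2 CPM plus 0.5. The 22 points share the steep late rise of WT, and the values are descriptions. For 63 of the 80 genes r was above 0.9, and among core genes the median was 0.95 and the lowest 0.58, that of rps18. The 5 genes least like the median course were rps19bp1 (-0.689), rps27l (-0.095), rpl22l1 (0.438), rps18 and rpl7l1 (0.595), so that 4 of the 5 were not core genes. The next were rplp0 (0.626), rps28p9 (0.779), rpl5 (0.787), rpl14 (0.821) and rpl39 (0.834).

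**Figure D4:**
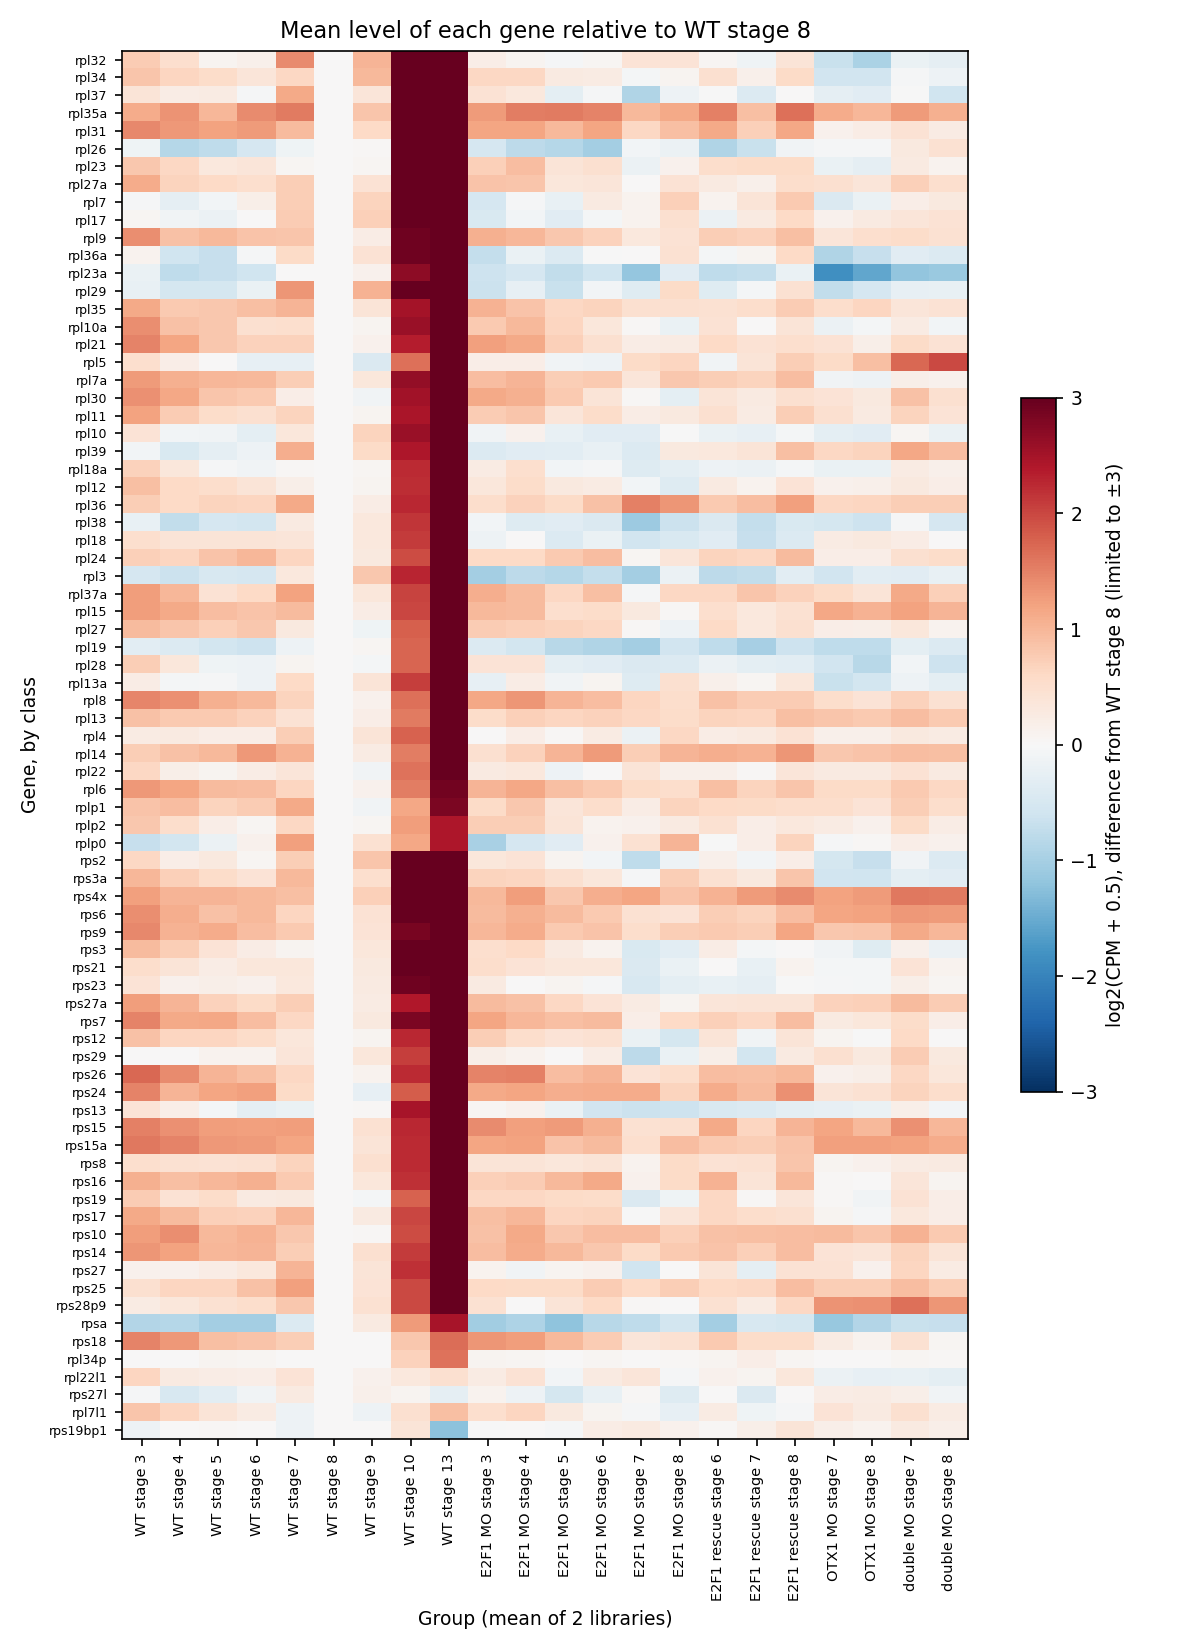
Mean level of nearly all of the tested ribosomal protein genes in the 22 groups, as the difference from WT stage 8 in log2 of CPM plus 0.5, with the colour scale ending at -3 and 3. Genes are ordered by class and columns by treatment and stage. Nearly every gene is far above its WT stage 8 level at WT stages 10 and 13, rps19bp1 is below it at stage 13, and rpl5 stands out in the double MO columns.

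The non-subunit genes and the paralogs are given one by one. The gene rps19bp1 stood at 51.8 and 56.2 CPM at WT stage 3, 86.7 and 71.9 CPM at stage 10 and 21.4 and 29.2 CPM at stage 13. It was the gene that fell while the set rose, with a log2 change of -1.64 ± 0.10 from stage 10 to 13 (edgeR adjusted p = 2.72e-18) and of -1.08 ± 0.10 from stage 3 to 13 (edgeR adjusted p = 8.89e-13). The assembly factor gene rpl7l1 fell from 151 and 138 CPM at stage 3 to 71.3 and 75.1 CPM at stage 9 (-0.98 ± 0.08, edgeR adjusted p = 2.84e-15) and was back at 151 and 153 CPM at stage 13. The paralog rpl22l1 stood at 25.1 and 25.2 CPM at stage 3 and 20.9 and 24.4 CPM at stage 13, while its partner rpl22 grew 5.57-fold in mean CPM. In mammals the product of the latter represses the former. The paralog rps27l, a p53 target in mammals, stayed between 0.503 and 1.97 CPM in all 44 libraries, while rps27 grew 10.4-fold. The copy rpl34p held 0 counts in both libraries of WT stages 3, 4, 7, 8 and 9 and reached 0.829 and 1.24 CPM at stage 13, with r = 0.955 to the median course. Reads of near-identical copies may have been split in counting, which leaves the values of rpl34p and of rps28p9 uncertain.

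Injection of the E2F1 morpholino was compared with WT at each stage from 3 to 8. At stage 3, 22 of the 80 genes were lower and 0 higher by edgeR, against 4.30% of all genes lower and 523 of the 16064 higher. For the set DESeq2 called 35 lower and 0 higher, and the median log2 change was -0.30. An unadjusted p under 0.05 was reached by 46 in either direction. The lower genes comprised 15 of the large subunit with the stalk, 6 of the small subunit and rpl7l1. Among them was rpl18, a large subunit protein, at 15.01 and 17.1 CPM against 26.0 and 25.1 CPM in WT (-0.67 ± 0.12, edgeR adjusted p = 0.000108). The number of calls moved when single libraries were left out, which leaves 1 library in a group. It was 3 without the first E2F1 MO library, 9 without the first WT library, 13 without the second WT library and 25 without the second E2F1 MO library. At stage 4 the only call was rpl18 (-0.40 ± 0.11, edgeR adjusted p = 0.0364, beside 0.971% of all genes lower), and it was lost without any of the 4 libraries (adjusted p of 0.121 to 0.295). At stage 5, 4 genes were lower (1.57% of all genes): rpl18 (-0.82 ± 0.12, edgeR adjusted p = 2.19e-06), rpl15 (-0.42 ± 0.09, edgeR adjusted p = 0.0018), rps15a (-0.43 ± 0.12, edgeR adjusted p = 0.042) and rpl3. Leaving out any library at stage 5 left 2 calls. The call of rps15a was lost in all 4 cases (0.135 to 0.275) and that of rpl15 without the first WT library (0.0555). At stage 6, rpl18 (-0.61 ± 0.11, edgeR adjusted p = 0.000442) and rpl15 (-0.31 ± 0.09, edgeR adjusted p = 0.043) were lower (0.772% of all genes), and rpl15 lost its call without any of the 4 libraries (0.0583 to 0.429). In rescue embryos of stage 6, 3 genes were lower than WT (1.48% of all genes): rpl18 (-0.75 ± 0.12, edgeR adjusted p = 1.54e-05), rpl15 and rps15a. The number was 1 without the second WT library. The call of rpl15 was lost without any of the 4 libraries (0.0824 to 0.152), and that of rps15a without the second WT library or either rescue library (0.313, 0.0984 and 0.204).

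The gene rpl18 was called lower than WT in all of the E2F1 MO and rescue groups, with the limit given above at stage 4. The E2F1 MO libraries held 17.9 and 18.1 CPM (stage 4), 12.8 and 13.9 CPM (stage 5), 15.9 and 15.1 CPM (stage 6), 11.4 and 12.2 CPM (stage 7), and 13.6 and 12.2 CPM (stage 8). The WT libraries of those stages held 24.4 and 23.1, 23.7 and 23.7, 22.2 and 25.1, 24.1 and 22.5, and 17.9 and 18.0 CPM. With E2F1 mRNA added the level stayed below WT. The rescue libraries of stage 6 held 15.9 and 12.4 CPM, those of stage 7 held 10.5 and 11.6 CPM and those of stage 8 held 13.2 and 13.7 CPM, and the differences from E2F1 MO were -0.14 ± 0.12, -0.10 ± 0.12 and 0.05 ± 0.11 (edgeR adjusted p = 0.835, 0.525 and 0.766). In the double MO group rpl18 stood at 18.7 and 23.6 CPM at stage 7 and 18.3 and 17.8 at stage 8, above E2F1 MO by 0.84 ± 0.11 (edgeR adjusted p = 1.7e-08) and 0.48 ± 0.11 (edgeR adjusted p = 0.000225). OTX1 MO libraries held 21.6 and 21.0 CPM at stage 7 and 23.7 and 20.7 CPM at stage 8. At stage 8 rpl18 was called higher in OTX1 MO than in WT. The call was lost without either WT library or the first OTX1 MO library (log2 differences 0.30, 0.31 and 0.20), each of which leaves 1 library in its group.

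At stage 7 more of the genes were lower than higher against WT in each of the 4 kinds of injected embryo. These comparisons share the 2 WT libraries of stage 7, so their values are given side by side and are not independent. In WT the share of the set was higher at stage 7 than at any other stage up to 9. The median member in CPM was not (16.9 at stage 7 and 23.0 at stage 3). In E2F1 MO 55 of the 80 genes were lower and 6 higher (22 and 25.3% of all genes), with a median log2 difference of -0.56. In E2F1 rescue 46 were lower and 7 higher (16.8 and 16.5%), with a median of -0.39. In OTX1 MO 44 were lower and 8 higher (23.9 and 25.3%), with a median of -0.42. In double MO 28 were lower and 15 higher (24.7 and 25.6%), with a median of -0.12. The median over all genes was 0 in each, and that of the 603 short genes outside the set was -0.20, -0.13, 0 and 0 in the same order. Several of the genes that had risen most in WT at stage 7 were among the lowest. That rise and the differences below rest on the same 2 WT libraries, so a low value against WT follows in part from the choice. The gene rpl29 stood at 1.946 and 2.699 CPM in E2F1 MO, 2.89 and 3.05 in rescue, 1.81 and 1.53 in OTX1 MO and 2.21 and 2.85 in double MO, against 9.31 and 7.92 CPM in WT. Its log2 differences from WT were -1.90 ± 0.22, -1.53 ± 0.21, -2.36 ± 0.23 and -1.77 ± 0.22 (edgeR adjusted p = 7.8e-10, 1.97e-07, 1.06e-11 and 4.2e-09), and no injected library reached the WT libraries. The gene rpl37 stood at 2.06 and 2.27 CPM in E2F1 MO against 10.2 and 10.7 CPM in WT (-2.27 ± 0.18, edgeR adjusted p = 2.35e-14), and rpl39 at 2.03 and 2.73 against 7.90 and 7.51 CPM (-1.70 ± 0.17, edgeR adjusted p = 6.34e-11). In the double MO libraries rpl39 stood at 7.93 and 8.45 CPM. The markers given above differed between these groups too. The ptprc level was 0.379 CPM in WT and 0.8004 in rescue, against 31.3, 21.8 and 21.3 CPM in E2F1 MO, OTX1 MO and double MO, and of the 9 gastrula and neurula genes 9, 1, 2 and 2 were higher than WT in E2F1 MO, rescue, OTX1 MO and double MO. Their part in the result was not tested.

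**Figure D5:**
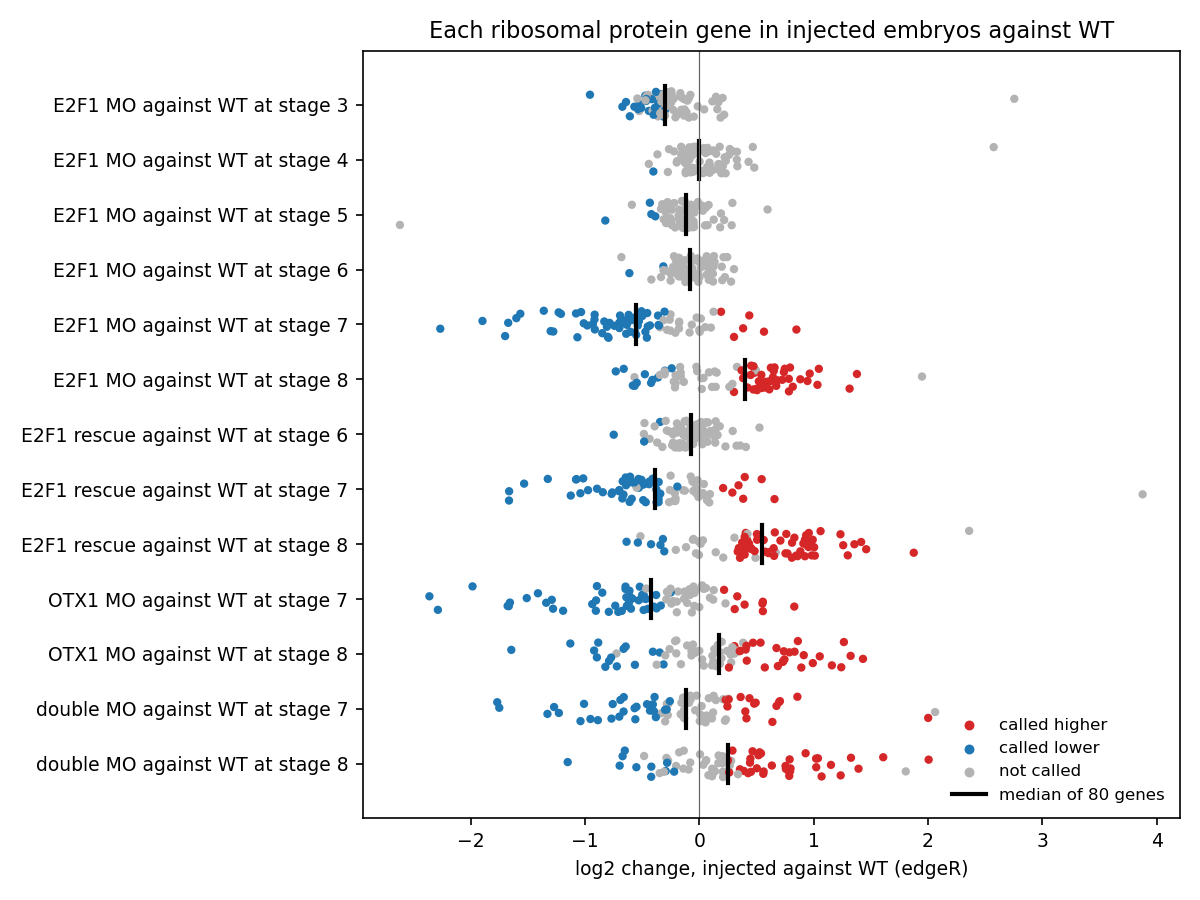
Log2 difference of each tested ribosomal protein gene between injected embryos and WT of the same stage, by treatment and stage. Points are genes, coloured where the gene was called by edgeR at an adjusted p under 0.05 and grey where it was not, and bars are medians. The medians are below 0 at stage 7 (-0.56 to -0.12) and above 0 at stage 8 (0.17 to 0.55). The grey points far from the rest belong to rpl34p, which has 0 or nearly 0 counts in these libraries.

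The few genes that stood higher than WT at stage 7 were led by rpl5. It held 16.9 and 17.3 CPM in WT, 29.0 and 32.7 in E2F1 MO, 26.2 and 27.8 in rescue, 32.1 and 28.7 in OTX1 MO, and 61.7 and 75.3 in double MO. The log2 differences from WT were 0.85, 0.66, 0.83 and 2.001, each ± 0.10 (edgeR adjusted p = 1.28e-09, 1.21e-06, 2.2e-09 and 8.8e-21). At stage 8 rpl5 stood at 21.4 and 19.4 CPM in WT and at 84.2 and 79.7 CPM in double MO, a difference of 2.005 ± 0.10 (edgeR adjusted p = 1.47e-20). All double MO libraries lay above all single MO libraries of their stage. The effect of both morpholinos together exceeded the sum of the single effects on the log2 scale by 0.44 ± 0.14 at stage 8 (edgeR adjusted p = 0.00948), while at stage 7 the excess of 0.32 ± 0.13 missed the threshold (edgeR adjusted p = 0.0612). The gene rps28p9, whose symbol marks a copy of the small subunit gene rps28, stood at 15.36 and 14.98 CPM in OTX1 MO and 18.0 and 19.4 in double MO at stage 7, against 10.8 and 9.87 in WT and 5.84 and 5.76 in E2F1 MO. At stage 8 it stood at 15.66 and 14.98 CPM in OTX1 MO and 14.9 and 14.9 in double MO, against 6.17 and 5.14 in WT (1.43 ± 0.14 and 1.39 ± 0.15, edgeR adjusted p = 2.84e-11 and 6.05e-11). The large subunit gene rpl23a stood below WT in all 4 kinds of injected embryo at stage 7, with means of 6.90 CPM in E2F1 MO, 9.52 in rescue and 6.72 in double MO (-1.23 ± 0.13, -0.77 ± 0.13 and -1.27 ± 0.14, edgeR adjusted p = 2.39e-10, 8.63e-06 and 1.65e-10). In OTX1 MO it stood at 4.07 and 4.13 CPM at stage 7 and 4.87 and 5.40 at stage 8, against 17.1 and 15.3 and then 16.1 and 15.9 CPM in WT (-1.98 ± 0.14 and -1.64 ± 0.14, edgeR adjusted p = 4.3e-15 and 6.11e-13).

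At stage 8, where WT was at its lowest, most of the called genes were higher in the injected groups. These comparisons again share their WT libraries. In E2F1 MO 41 were higher and 11 lower (26.2 and 23.7% of all genes), with a median log2 difference of 0.40. In rescue 57 were higher and 6 lower (27.0 and 25.2%), with a median of 0.55. In OTX1 MO 28 were higher and 15 lower (28.1 and 26.4%), with a median of 0.17. In double MO 37 were higher and 10 lower (28.0 and 27.2%), with a median of 0.25. In E2F1 MO the largest differences were those of rpl36, at 20.4 and 17.7 against 6.43 and 8.29 CPM (1.38 ± 0.15, edgeR adjusted p = 1.76e-10), rpl35a (1.31 ± 0.21) and rpl14 (1.04 ± 0.11). In rescue, OTX1 MO and double MO the gene rps4x stood at 28.0 and 23.6, 22.9 and 24.1, and 28.2 and 29.1 CPM against 10.2 and 8.47 CPM in WT (1.46 ± 0.12, 1.32 ± 0.12 and 1.61 ± 0.11, edgeR adjusted p = 1.04e-13, 5.51e-13 and 1.16e-15). In E2F1 MO it also stood above WT, at 42.6 against 22.7 TPM in the means. On this TPM scale rescue, OTX1 MO and double MO stood higher, at 57.95, 56.8 and 69.5. The gene rpsa, the only gene of the set that rose in WT at stage 8, was lower in each injected group, at 50.9 and 53.4 CPM in E2F1 MO, 56.1 and 48.9 in rescue, 39.3 and 42.7 in OTX1 MO and 48.7 and 45.2 in double MO against 78.2 and 74.1 in WT. Its log2 differences were -0.55, -0.54, -0.90 and -0.70, each ± 0.10 (edgeR adjusted p = 1.13e-05, 1.74e-05, 5.42e-10 and 1.1e-07). The WT rise of rpsa and these differences rest on the same 2 WT libraries of stage 8. The WT stage 8 libraries held 87.6 CPM of ptprc against 0.451 to 32.3 CPM in the injected groups, and 17136933 and 14702381 counts against 19733586 to 37174326. Of the 9 gastrula and neurula genes 6, 2 and 5 were lower than WT in rescue, OTX1 MO and double MO. The part of these in the result was not tested.

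The change of the E2F1 MO difference between neighbouring stages was tested in the same fit. Between stages 3 and 4 it moved up for 3 genes, rpl7, rpl13a and rpl10a (0.467% of all genes), a count that fell to 0 without the first WT library of stage 3, either WT library of stage 4 or the first E2F1 MO library of stage 3 or 4, and that was 6 without the second E2F1 MO library of stage 3. Between stages 4 and 5, and 5 and 6, edgeR and DESeq2 called 0 of the 80 genes, and 7 and 5 genes had an unadjusted p under 0.05. Of all genes 0.0747% moved up and 0.0374% down at the former step and 0% at the latter. Between stages 6 and 7 it moved down for 39 genes and up for 2 (14.4 and 15.1% of all genes), the latter being rpl5 (0.76 ± 0.15) and rps24 (0.70 ± 0.15). The median member stood at 15.5 and then 16.9 CPM in WT of these stages, and at 15.05 and then 11.7 CPM in E2F1 MO. Between stages 7 and 8 it moved up for 57 and down for 2, rpl7l1 and rps19bp1 (19.7 and 19.4% of all genes). Over this last step WT itself fell, with a median member at 16.9 and then 11.9 CPM, while the median member of E2F1 MO stood at 11.7 and then 13.4 CPM, so the WT change is part of these values. The median of this last change was 0.84 in the set and 0.20 in the 603 short genes outside it, and all of the core genes called, 33 of the large subunit with the stalk and 24 of the small, moved up.

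Adding E2F1 mRNA to the E2F1 morpholino was compared with the morpholino alone. At stage 6, 0 of the 80 genes were called by edgeR or by DESeq2, 2 had an unadjusted p under 0.05, and 0.0436% of all genes were higher and 0.0872% lower. At stage 7, 26 were higher and 5 lower (20.1 and 23.3% of all genes), with a median log2 difference of 0.21, and with total counts alone 16 were higher and 7 lower. The gene rpl37a stood at 19.6 against 10.5 CPM in the means (0.90 ± 0.15, edgeR adjusted p = 5.16e-06), and rps2 at 7.37 and 7.67 against 4.22 and 4.71 CPM (0.76 ± 0.18, edgeR adjusted p = 0.000866). Rescue embryos of stage 8 had 35 genes higher than E2F1 MO and 2 lower (20.1 and 19.8%), with a median of 0.27 against 0.20 for the 603 short genes outside the set, led by rps12 (0.96 ± 0.15, edgeR adjusted p = 1.89e-06) and rpl12 (0.83 ± 0.13, edgeR adjusted p = 1.07e-06). The small subunit had 17 of its 30 genes higher and the large subunit with the stalk 15 of 45. The calls at stage 8 numbered 16 without the first rescue library and 23 without the first E2F1 MO library, and at stage 7 they numbered 18 without the first E2F1 MO library, 20 without the first rescue library and 18 without the second.

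Double MO embryos were compared with each single MO. Against E2F1 MO at stage 7, 48 genes were higher and 5 lower (20.5 and 24.1% of all genes), with a median log2 difference of 0.37 against 0.32 for the 603 short genes outside the set. The largest differences were those of rpl39 (1.78 ± 0.18, edgeR adjusted p = 2.71e-11), rps29, a zinc-binding protein of the small subunit, at 8.75 against 2.67 CPM in the means (1.71 ± 0.19, edgeR adjusted p = 3.23e-10) and rps28p9 (1.69 ± 0.13, edgeR adjusted p = 5.38e-14). Double MO embryos of stage 8 had 21 genes higher and 19 lower than E2F1 MO (20.9 and 22.3%). Against OTX1 MO 17 were higher at stage 7 (1.64% of all genes) and 4 at stage 8 (1.26%). At either stage 0 were lower by edgeR or by DESeq2, where edgeR called 337 and 228 of the 16064 genes lower. An unadjusted p under 0.05 was reached by 44 and 19 genes of the set. The stage 7 count was 6, 4 and 2 without the first or second OTX1 MO library or the second double MO library and 33 without the first double MO library, and the stage 8 count was 1 without the first OTX1 MO library and 2 without the first double MO library. The largest difference at both stages was that of rpl5 (1.17 ± 0.09 at stage 7 and 1.09 ± 0.09 at stage 8, edgeR adjusted p = 5.99e-12 and 7.18e-12). The interaction of the morpholinos, the double effect beyond the sum of both single effects on the log2 scale, was above 0 for 61 genes and below 0 for 1 at stage 7 (15.9 and 18.3% of all genes), with a median of 0.85 against 0.49 for the 603 short genes outside the set. The highest was that of rpl37 (2.55 ± 0.26, edgeR adjusted p = 1.01e-10). At stage 8 it was above 0 for 12 and below 0 for 25 (16.6 and 19.4%), with a median of -0.13. The WT level enters this interaction once with a positive sign, so the high WT level at stage 7 is part of its value.

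Other genes of the ribosome were read from lists chosen with earlier results of these data known. The first list held 23 tested genes outside the set with a known or presumed 5'TOP sequence. Among them was fau, whose product carries a small subunit protein fused to a ubiquitin-like domain. From stage 9 to 10, where 32.7% of all genes rose and 4908 of the 16064 fell, 20 of the 23 rose and 2 fell. Their median log2 change was 1.02. Over stages 3 to 13, 21 rose and 2 fell (49.1 and 37.4% of all genes) with a median of 2.07, led by the elongation factor genes eef1a1 (7.35, edgeR adjusted p = 3.67e-35) and eef1a1o (6.52, edgeR adjusted p = 1.89e-38). At stage 8 against stage 7, 3 rose and 13 fell (21.1 and 23.1% of all genes), the largest being eef1b2 (-1.32, edgeR adjusted p = 2.41e-17) and eef1g (-1.26, edgeR adjusted p = 2.04e-19). In E2F1 MO 13 of the 23 were lower and 2 higher than WT at stage 7 (22 and 25.3% of all genes), where fau differed by -1.24 (edgeR adjusted p = 8.14e-12), and 12 were higher and 5 lower at stage 8 (26.2 and 23.7%). Of 64 tested genes of ribosome assembly 55 rose and 5 fell from stage 9 to 10, again beside 32.7% of all genes that rose and 4908 that fell. The median of the 64 was 0.84. Between stages 3 and 9, where most called ribosomal protein genes were lower, 42 rose and 19 fell (39.7 and 31.5% of all genes) with a median of 0.76. The rises were led by rrp12 (3.51, edgeR adjusted p = 3.59e-20) and rrp1b (3.12, edgeR adjusted p = 2.65e-27). At the step from stage 5 to 6, 23 of the 64 rose and 1 fell, where 5.99% of all genes rose and 833 of the 16064 fell. In E2F1 MO 24 of the 64 were higher and 11 lower than WT at stage 7 (25.3 and 22% of all genes), and 41 were higher and 10 lower at stage 8 (26.2 and 23.7%), where nle1 (1.996, edgeR adjusted p = 3.25e-20) and gnl2 (1.39, edgeR adjusted p = 4.79e-17) differed most.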

How the data were processed

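The 44 mRNA-seq libraries came from whole embryos. Per the labels' protocols the kit was one for stranded mRNA. The values are raw counts per gene as deposited by the authors. The submitters' processing notes name STAR 2.7.0e, featureCounts 2.0.1, fastp and deepTools. The build, annotation and strand setting of the counting were not given in those notes or labels. Near-identical copies and overlapping genes are therefore uncertain. The members and lists were chosen with earlier results of these data known.

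All 44 libraries were fitted together in R 4.3.3 with edgeR 4.0.16 (limma 3.58.1): genes kept by filterByExpr with a minimum count of 10, TMM scaling, a term for each of 22 groups, and the quasi-likelihood test with robust estimation, 22 residual degrees of freedom and Benjamini-Hochberg adjustment over 16064 genes, called under 0.05. The procedure was run on simulated counts with the same spread for every gene. That does not test it for spread that differs between genes or clutches. CPM uses the adjusted library size, and TPM was computed from counts and the listed gene length. The number of libraries, 2 per group, limits the precision. A floor of 3 counts is 0.0706 to 0.330 CPM by library and covers counting error only. Libraries of a group differed by more than sampling noise (chi-square per gene 1.38 to 27.6, Pearson's r 0.983 to 0.997), and none was counted as a repeat. The chi-square was highest in rescue stage 8 (27.6), WT stage 10 (12) and double MO stage 7 (11.8). It does not tell separate embryos from separate libraries of 1 pool.

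Named members are the 5 highest and 5 lowest in mean WT TPM, up to 3 called rises and 3 called falls with the largest change per comparison at 5 CPM or more in the higher group, the 5 least like the median course, the paralogs and non-subunit genes, and rps26, rpl18 and rpl36a. Of each gene list the 2 largest called changes are named. Other members are named to complete a description, and the values of some genes are not reported here by name. Alternatives were total-count and relative-log-expression scaling, no filter, only the compared groups, DESeq2 1.42.0, a replicate block and leaving out each library, for which the dispersion trend of the full fit was held.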

Additional observations from a re-analysis of the deposited data

Results flagged for a closer look

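Some E2F1 MO effects differed between neighbouring stages when the difference itself was tested in the edgeR fit. From stage 3 to stage 4 the effect on the log2 scale moved by 0.77 ± 0.19 for rpl7 (SE, edgeR adjusted p = 0.0386), 0.77 ± 0.15 for rpl13a (0.0103) and 0.74 ± 0.19 for rpl10a (0.0427). These calls were lost when any of several single libraries was left out, as given above, which leaves 1 library in a group. Those of rpl7 and rpl10a were also lost with total counts alone (edgeR adjusted p = 0.0576 and 0.0595). From stage 6 to stage 7 the largest moves were -2.26 ± 0.27 for rpl37 (edgeR adjusted p = 1.1e-08), -2.02 ± 0.35 for rpl29 (1.49e-05) and -1.70 ± 0.34 for rpl38 (0.000143). From stage 7 to stage 8 they were 2.52 ± 0.32 for rpl29 (edgeR adjusted p = 2.05e-08), 2.09 ± 0.26 for rpl37 (1.55e-08) and 2.03 ± 0.26 for rpl39 (2.51e-08). Moves into and out of stage 7 share the libraries of that stage, so they are not independent. The WT change is part of each. Mean CPM of rpl29 over stages 6, 7 and 8 was 2.7, 8.6 and 3.1 in WT. E2F1 MO means were 2.9, 2.3 and 4.9. For rpl37 the WT libraries held 4.09 and 4.70, then 10.2 and 10.7, then 4.04 and 4.96 CPM. Its E2F1 MO libraries held 5.10 and 3.68, then 2.06 and 2.27, then 3.64 and 4.31 CPM.

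The effect of the E2F1 morpholino, taken against WT, also differed from its effect with the OTX1 morpholino present. The WT level enters this difference with a positive sign. At stage 7 the difference was 2.55 ± 0.26 for rpl37 (edgeR adjusted p = 1.01e-10), 2.49 ± 0.34 for rpl29 (1.36e-07) and 2.28 ± 0.24 for rpl39 (2.57e-10). At stage 8 it was -1.28 ± 0.20 for rpl36 (edgeR adjusted p = 1.39e-06), -1.24 ± 0.26 for rpl35a (0.000219) and -1.06 ± 0.17 for rps15a (4.88e-06). The gene rpl37 stood at 10.2 and 10.7 CPM in WT of stage 7 and 2.06 and 2.27 in E2F1 MO. In OTX1 MO of that stage it stood at 3.13 and 4.23 CPM and in double MO at 4.25 and 4.645, so the high WT level is part of its difference.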

How the results depend on the processing

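The cause of the shifts given here was not tested, and 2 libraries per group limit every comparison. Members called with total counts alone numbered 5 for WT stage 4 against 3, 9 for stage 5 against 4 (6 higher, 3 lower), 5 for stage 6 against 5, 56 for stage 9 against 3 (29 higher, 27 lower), 0 and 1 for E2F1 MO at stages 4 and 6, and 1 for the change of the E2F1 MO effect from stage 3 to 4. With no filter they numbered 15 for WT stage 4 against 3, 3 for stage 6 against 5, 34 for E2F1 MO at stage 3, 5 for rescue against WT at stage 6, 27 and 7 for double MO against OTX1 MO at stages 7 and 8, and 7 for the effect change. With only the compared groups they numbered 20, 20 and 5 for the first 3 WT steps, 5 for E2F1 MO at stage 4, 5 for rescue against WT at stage 6, 51 and 11 for rescue against E2F1 MO at stages 7 and 8, and 4 for double MO against OTX1 MO at stage 7. DESeq2 called 17 for WT stage 4 against 3, 3 for stage 6 against 5, 35 and 2 for E2F1 MO at stages 3 and 4, and 6 for the effect change, and relative-log-expression scaling 2 for E2F1 MO at stage 4. Total counts alone split stage 4 against 3 into 1 higher and 4 lower, and rescue against E2F1 MO at stage 7 into 16 and 7. They reversed rpl22l1 (0.054) and rps4x (0.038) in stage 9 against 3. Differences between replicates 1 and 2 had correlations of -0.0393 to 0.0414 between the compared groups, across genes, over 30 comparisons. Values near 0 do not show that samples were unpaired, since small clutch differences would give them too. A replicate block called 2 members for WT stage 6 against 5, moved no other count past 1.5-fold and ended 1 named call. Leaving out a library gave 1 to 3 calls for WT stage 4 against 3, 4 to 10 for 5 against 4, 0 to 1 for 6 against 5 and 17 to 24 for 9 against 8. It gave 3 to 25, 0 to 0, 2 to 2 and 1 to 3 for E2F1 MO at stages 3, 4, 5 and 6, 1 to 3 for rescue against WT at stage 6, and 18 to 21 and 16 to 43 for rescue against E2F1 MO at stages 7 and 8. It gave 2 to 33 and 1 to 6 for double MO against OTX1 MO at stages 7 and 8, 33 to 37 for double MO against E2F1 MO at stage 8, and 0 to 6 for the effect change. Of 2504 values of 238 named changes under the alternatives, 2297 kept direction and call, 205 lost the call and 2 reversed.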
